A study of Mus musculus with 2 samples.

Results

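The 8 podocyte identity genes described here were Nphs1, Magi2, Podxl, Ptpro, Synpo, Lmx1b, Foxc1 and Foxc2, chosen by name and followed through snATAC-seq, an assay of accessible chromatin that maps, nucleus by nucleus, where a transposase could cut the DNA. Their regions were the peaks that overlapped the gene body or the 2 kb upstream of it, which gave 120 of 159560 peaks in the Enl-WT library and 93 of 130027 in the Enl-T1 library. Both libraries were made from kidneys of mouse embryos on the B6 background at stage E15.5 of development, with 1 library per genotype. Enl-WT embryos were Enl+/+ Wt1 GFPCre/+ and Enl-T1 embryos were Enl flox-T1/+ Wt1 GFPCre/+. The T1 allele of Enl (Mllt1), a reader of acetylated histones, carries a short in-frame insertion seen in Wilms tumor. Cre was made from the Wt1 locus, so it acted where Wt1 is active, in nephron and stromal progenitors, and every sample of both genotypes carried this Wt1 knock-in. Because Wt1 is itself a podocyte regulator, the control library is not one with 2 intact Wt1 alleles. The sources used here do not say how many embryos went into each snATAC-seq library.

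Podocytes wrap the capillaries of the glomerulus with interlocking foot processes, and the slit diaphragm that spans the gaps between them is the last layer of the filter that keeps protein out of the urine. They arise from nephron progenitors through an early epithelial stage, under transcription factors such as WT1, LMX1B and the forkhead proteins FOXC1 and FOXC2. Nephrin, the product of Nphs1, is the core slit diaphragm protein, and the scaffold MAGI2 sits beneath it. Podocalyxin (Podxl) and the receptor phosphatase PTPRO (Ptpro, also called GLEPP1) lie on the apical membrane, and synaptopodin (Synpo) binds actin in the foot processes.

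Nuclei with 2000 to 100000 counts were kept, 9472 in Enl-WT and 12635 in Enl-T1, with medians of 14789.5 and 8753 counts. A count is a cut site, and 2 counts stand for about 1 fragment. The Enl-T1 library was thus shallower per nucleus, and levels are given as CPM, counts of a gene scaled to a fixed total over the nuclei summed. The libraries held 138176616 and 110265593 counts over all barcodes, and 169 barcodes occurred in both. Clusters were named from marker genes that hold none of the 8 genes, and the regions of the 8 genes were left out of the clustering. With 1 library per genotype there is no test of a difference between genotypes. All intervals are 95% intervals for counting error only, exact Poisson or exact binomial, on fragments or nuclei.

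The sequences shown here are a selection of the regions described below, and come from Nphs1, Ptpro and Lmx1b only. They were read from the mouse genome GRCm38.p6 (the deposited data use mm10, the same build) and written 5′ to 3′. They cover the 2 start site regions at the 5′ end of Nphs1, the Ptpro promoter, the most open intronic regions of Lmx1b and Ptpro in podocyte-like nuclei, and the intronic region of Ptpro that was lowest in Enl-T1. None overlaps an annotated exon. Capitals mark matches, on either strand, to 4 short motifs that were searched: TGTTTAC (forkhead), GTGGGAG (core of WT1 sites), TAATTA (LIM homeodomain) and TGCTGAC (a half-site of bZIP factors).
Nphs1 and Kirrel2 shared upstream region, chr7:30457691-30457990, plus strand: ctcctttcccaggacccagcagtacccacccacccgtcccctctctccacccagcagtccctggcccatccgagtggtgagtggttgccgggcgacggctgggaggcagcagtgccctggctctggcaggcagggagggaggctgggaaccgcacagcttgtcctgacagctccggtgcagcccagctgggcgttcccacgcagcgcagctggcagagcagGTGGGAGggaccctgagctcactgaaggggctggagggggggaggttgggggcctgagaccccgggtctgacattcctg
Nphs1 first intron, chr7:30459441-30459724, plus strand: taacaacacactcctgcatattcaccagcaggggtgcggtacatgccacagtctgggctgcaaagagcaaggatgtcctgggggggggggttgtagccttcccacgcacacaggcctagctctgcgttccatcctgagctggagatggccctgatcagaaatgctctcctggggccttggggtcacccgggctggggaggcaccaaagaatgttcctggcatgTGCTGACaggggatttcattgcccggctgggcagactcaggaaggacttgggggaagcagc
Ptpro promoter, chr6:137252049-137252298, plus strand: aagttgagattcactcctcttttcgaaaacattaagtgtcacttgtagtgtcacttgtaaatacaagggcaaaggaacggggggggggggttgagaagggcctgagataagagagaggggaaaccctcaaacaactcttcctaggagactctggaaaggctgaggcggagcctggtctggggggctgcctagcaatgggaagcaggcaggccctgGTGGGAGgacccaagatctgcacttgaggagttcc
Lmx1b intron, chr2:33605510-33605809, plus strand: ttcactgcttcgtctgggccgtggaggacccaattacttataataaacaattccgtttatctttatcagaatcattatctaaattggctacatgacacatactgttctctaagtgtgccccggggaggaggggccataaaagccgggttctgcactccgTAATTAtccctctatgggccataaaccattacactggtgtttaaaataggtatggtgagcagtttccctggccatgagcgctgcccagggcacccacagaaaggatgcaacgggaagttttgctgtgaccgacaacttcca
Ptpro intron, chr6:137295180-137295479, plus strand: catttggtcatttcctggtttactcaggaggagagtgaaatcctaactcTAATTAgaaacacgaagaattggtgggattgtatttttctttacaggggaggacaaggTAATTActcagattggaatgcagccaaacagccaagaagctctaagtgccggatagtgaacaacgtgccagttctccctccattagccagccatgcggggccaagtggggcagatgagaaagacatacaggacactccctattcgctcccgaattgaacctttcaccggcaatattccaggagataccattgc
Ptpro intron lowest in Enl-T1, chr6:137303883-137304182, plus strand: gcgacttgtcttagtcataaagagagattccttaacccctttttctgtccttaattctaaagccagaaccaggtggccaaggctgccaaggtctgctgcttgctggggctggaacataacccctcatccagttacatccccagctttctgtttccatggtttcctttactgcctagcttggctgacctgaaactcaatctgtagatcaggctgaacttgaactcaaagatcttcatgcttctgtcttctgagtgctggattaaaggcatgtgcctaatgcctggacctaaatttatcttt
The match in the shared upstream region of Nphs1 and in the Ptpro promoter was GTGGGAG. The first intron of Nphs1 held TGCTGAC, and TAATTA occurred once in the Lmx1b intron and in 2 places in the first Ptpro intron shown. The last sequence held none of the motifs. Such short words are common: of 32851 RefSeq promoters cut to the same 250 bases upstream, 8.25% held GTGGGAG, 4.84% TAATTA, 3.81% TGCTGAC and 3.17% TGTTTAC. Of 159509 peaks of Enl-WT, read over their central 300 bases, the shares were 10.6%, 8.07%, 6.28% and 4.86%. The central windows of the 120 peaks of the 8 genes held GTGGGAG in 13 (10.8%), TAATTA in 11 (9.17%), TGCTGAC in 10 (8.33%) and TGTTTAC in 4 (3.33%), close to those of all peaks. RefSeq promoter entries matched 5 of the 8 genes, and Foxc2, Podxl and Synpo had none.

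With the clustering used here, podocyte-like nuclei were found in Enl-WT and none in Enl-T1. They formed 1 cluster of 340 nuclei, 3.59% of the library (3.22 to 3.98%) and 7.86% of the 4326 nuclei in the nephron lineage. In Enl-T1 the same cluster held 0 of 12635 nuclei. For counting error within this clustering alone, that allows a share of up to 0.0237% by a count of 3 and 0.0292% by the exact upper bound. Neither bound covers how nuclei were assigned to clusters, which moved with the clustering. In Enl-T1, 4444 nuclei were named to the nephron lineage. Most of these were the 4140 nuclei of cluster 0, called progenitor-like. That name was lost by the largest Enl-T1 cluster in 4 alternative clusterings (at least 5000 counts, resolution 2, components 2 to 20, doublets removed), where 2198 to 3151 Enl-T1 nuclei stayed unnamed in it and 1238 to 2038 were named to the nephron lineage. The podocyte-like cluster of Enl-WT was raised in 6 of its 8 naming markers. Of these 8, Clic5 was at 160 CPM in podocyte-like against 64.6 in progenitor-like nuclei, and Thsd7a at 38.7 against 17.3 CPM. The lowest log2 ratio of the 8 over progenitor-like nuclei was 0.35. The 10 leading genes by fold of the podocyte-like cluster, led by Rec114 and Tmem179, held no naming marker. The number moved with the clustering. At a minimum of 5000 counts the podocyte-like class held 658 Enl-WT nuclei and 2 of Enl-T1, but its podocyte marker score was 0.689 with 3 markers raised, against 1.02 with 6 here, and no cluster was then named early epithelium. On a graph of all shared neighbours, which was tried first, no cluster was called podocyte-like. A cluster of 728 Enl-WT and 36 Enl-T1 nuclei was then called early epithelium by a score of 0.683, with a podocyte score of 0.678.

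In Enl-WT, Podxl, Nphs1 and Synpo were 2.31 to 3.67 times more open in podocyte-like than in nephron progenitor-like nuclei, and the other 5 genes differed by less than 2-fold. Nearly all Enl-WT progenitor-like nuclei, 1488 of 1505, were of cluster 5, named by 7 raised progenitor markers, although its 10 leading genes by fold held Umod, a distal marker, and no progenitor marker. A gene was called higher or lower at a log2 ratio of 1 or more in size, a level passed upward by 1.76% of the 15470 genes compared. By this measure 3 of 8 genes were higher and 0 lower (2.86% of all genes were lower), with a median log2 ratio of 0.73 against 0.07 over all genes. The naming of the cluster did not use these genes, yet the cluster was chosen for podocyte chromatin as a whole, and these ratios describe 1 library.

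Of the slit diaphragm genes, Nphs1 (chr7:30458315-30487223, plus strand) stood at 125 CPM (111 to 141) in podocyte-like nuclei. Its regions overlap Kirrel2 and the antisense gene Nphs1os, and cut sites carry no strand. The next classes were early nephron epithelium at 46.9 CPM and progenitors at 44.5 CPM, then proximal tubule at 36.2, distal tubule or loop at 28.7, stroma at 21.7, ureteric epithelium at 19.7 and endothelium at 14.2 CPM. The podocyte interval stood apart from all others, and the ratio to progenitors was 2.81 on the linear scale (log2 1.49, 1.28 to 1.71). Magi2 (chr5:19227036-20704792, plus strand), a gene of 1477757 bp with 45 peaks, was open in every class. Its level was 203 CPM in podocyte-like nuclei (184 to 223), 170 in proximal tubule, 155 in both stroma and progenitors, and 86.0 and 80.8 in ureteric epithelium and endothelium. Its podocyte level was above each of these, but by only 0.39 on the log2 scale over progenitors (0.23 to 0.54).

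Among the apical and foot process genes, Podxl (chr6:31519488-31563981, minus strand) had the largest ratio to progenitors, 3.67 (log2 1.87, 1.65 to 2.11). It stood at 124 CPM in podocyte-like nuclei and 132 CPM in endothelial nuclei, with overlapping intervals, and at 31.2 to 45.7 CPM in the 6 other classes of kidney cells. Podocalyxin is also made by vascular endothelium. The regions behind the totals differed between these classes: an intronic region at chr6:31543912-31544974 had 34.9 CPM in endothelial and 8.07 CPM in podocyte-like nuclei, and the promoter region at chr6:31563422-31564423 had 51.4 and 61.0 CPM. Synpo, on chromosome 18, was at 269 CPM in podocyte-like nuclei (247 to 292), 244 in endothelium and 214 in stroma, against 116 in progenitors and 85.6 in distal tubule or loop. Synpo was thus called over progenitors at a log2 ratio of 1.21 (1.07 to 1.35), and not over early epithelium, stroma or endothelium. Ptpro (chr6:137252319-137463233, plus strand) was highest in podocyte-like nuclei, at 197 CPM (179 to 217), followed by progenitors at 114 and early epithelium at 111 CPM, and lowest in endothelium at 37.1 CPM. Its log2 ratio over progenitors was 0.79 (0.63 to 0.95).

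The transcription factor genes had a different order of levels. Lmx1b (chr2:33560965-33640511, minus strand) stood at 233 CPM in progenitors, 217 in podocyte-like nuclei and 216 in early epithelium, with overlapping intervals, and fell to 106 and 101 CPM in distal and proximal tubule, 65.9 in stroma and 47.4 in endothelium. Lmx1b thus set the nephron progenitors, early epithelium and podocytes apart from the tubules, and not podocytes from the others. Foxc1 (chr13:31806633-31812476, plus strand) ranged from 65.2 CPM in early epithelium and 59.5 in stroma to 26.8 in ureteric epithelium. Its podocyte level of 54.8 CPM (45.5 to 66.0) overlapped those of early epithelium, stroma and progenitors. Foxc2 (chr8:121116171-121118895, plus strand), read through 1 peak at its start site, overlaps the gene Gm20388, which these cut sites cannot set apart, and was at 27.5 CPM in podocyte-like nuclei (20.9 to 35.6) and 27.0 in stroma, and at 17.3 CPM in progenitors and 9.25 in distal tubule or loop. Both forkhead genes are also active in kidney mesenchyme, and neither was called over progenitors.

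**Figure D1:**
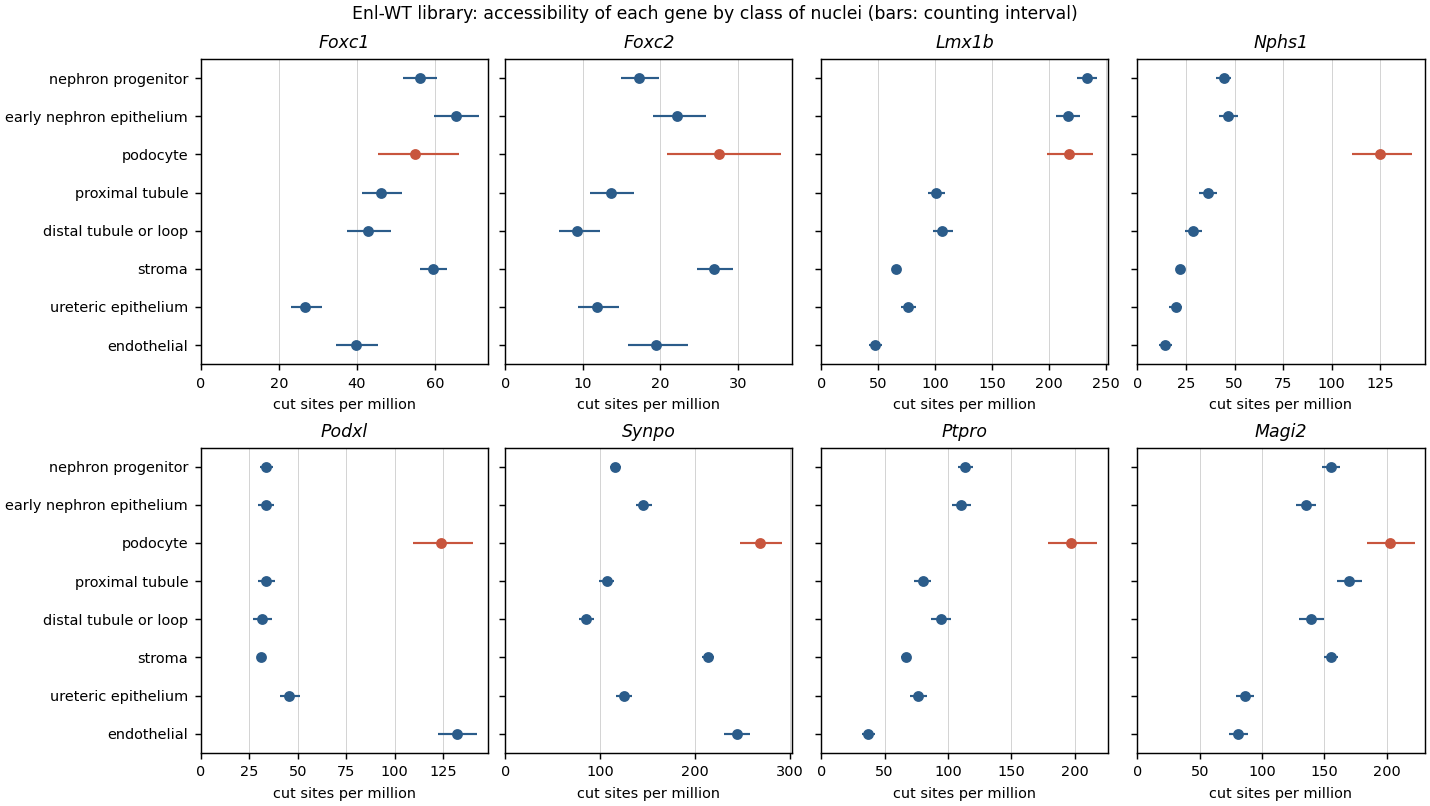
Accessibility of the 8 genes in CPM (x axis, from 0) in 8 classes of nuclei of the Enl-WT library (y axis). Points are sums over nuclei with 95% counting intervals, and podocyte-like nuclei are in red. Nphs1 stands alone at 125 CPM in podocyte-like nuclei, Podxl is as high in endothelium at 132 CPM, and Lmx1b is high in 3 classes, from 216 to 233 CPM.

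The other classes set the genes apart to different degrees. All 8 genes were called higher in podocyte-like than in ureteric epithelial nuclei, where 3.5% of all genes compared were higher. Over proximal tubule 6 of 8 were higher (background 2.41%), and the same 6 over distal tubule or loop (2.63%), Foxc1 and Magi2 being the exceptions. Over stroma (5.42%) the 4 called genes were Nphs1, Podxl, Ptpro and Lmx1b, and over endothelium (6.05%) they were Nphs1, Ptpro, Lmx1b and Magi2. Over early nephron epithelium only Nphs1 and Podxl were called (1.37%). Over immune nuclei 5 of the 7 that reached 200 counts were called (11.1%). None of the 8 genes was lower in podocyte-like nuclei against any of these classes, where the shares of all genes that were lower were 5.2% for ureteric epithelium, 4.13% for proximal tubule, 3.96% for distal tubule or loop, 4.55% for stroma, 5.1% for endothelium, 1.66% for early epithelium and 5.26% for immune nuclei. Nphs1 was the single gene called against each of the 8 other classes compared.

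Of 25 other podocyte genes, 3 were called higher over progenitors and 0 lower (1.76% and 2.86% of all genes). Their median log2 ratio was 0.48, against 0.07 over all genes. The called genes are on a short list. The 3 higher genes were Kirrel2, the nephrin relative whose gene lies head to head with Nphs1 and shares regions with it (89.7 against 18.4 CPM, log2 2.29, 1.99 to 2.57), Col4a3, a collagen of the glomerular basement membrane (1.12, 0.82 to 1.41), and Arhgap24, a regulator of small GTPases (1.09, 0.97 to 1.21). The lowest were the motor gene Myo1e at -0.27, the adaptor gene Nck2 at -0.03 and Vegfa, the endothelial growth factor made by podocytes, at 0.07. Wt1 was at 142 CPM in podocyte-like and 107 CPM in progenitor-like nuclei, a log2 ratio of 0.41 (0.22 to 0.59).

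**Figure D2:**
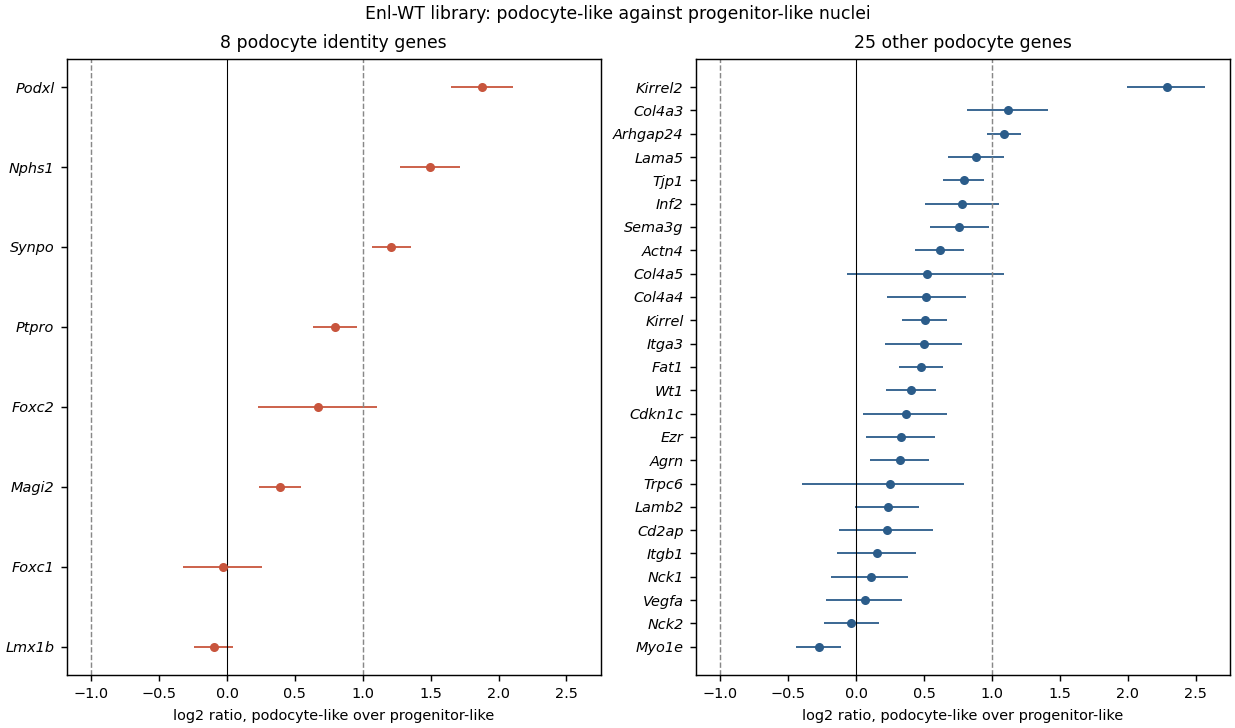
Log2 ratio of podocyte-like over nephron progenitor-like nuclei of the Enl-WT library (x axis) for the 8 genes (left, red) and 25 other podocyte genes (right, blue), listed by ratio on the y axis. Bars are 95% counting intervals and dashed lines mark ratios of 1 and -1. Podxl at 1.87, Nphs1 at 1.49 and Synpo at 1.21 pass the line on the left, and Kirrel2 is farthest on the right at 2.29.

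Across 9 classes of Enl-WT with 50 or more nuclei, the 10 genes whose levels followed the mean of the 8 most closely, among 6537 with at least 200 counts in podocyte-like nuclei, were R3hdml (Pearson r 0.955), Dusp15, Gnb1l, Atp2a3, Tmem167, Hapln3, Tns2, Limk2, Mast2 and Zbtb7c (0.925). These values are a description over classes of 1 library. R3hdml was at 55.0 CPM in podocyte-like and 8.52 in progenitor-like nuclei, but Gnb1l was at 71.9 and 62.9 and Limk2 at 138 and 121 CPM. The value of r follows the shape across classes, not the size of the ratio. The 8 genes did not follow each other equally: r with the mean of the other 7 was highest for Nphs1 at 0.779 and lowest for Podxl at 0.309 and Synpo at 0.421. Of the 8, Podxl and Synpo were also nearest in endothelium to their podocyte-like level. Their log2 ratios of podocyte-like over endothelial nuclei were -0.09 and 0.14.

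Podocyte-like and progenitor-like nuclei were also compared by single region, where ratios can exceed those of gene totals by construction. Of the 120 peaks, 29 had at least 50 counts in podocyte-like nuclei, a filter on the podocyte side alone, and 9 of these were at least 4 times higher there than in progenitors (8.63% of the 21268 peaks of the library that passed the same filter were). The 9 held 1108 of the 5130 podocyte-like counts of the 8 genes (21.6%). These 9 lay in Synpo (4), Ptpro (2), Nphs1, Podxl and Lmx1b. The highest ratio was in Nphs1, in the region at chr7:30458882-30460300 that holds its second annotated start site and the intron sequence given above. It had 153 counts in podocyte-like nuclei (36.3 CPM) and 53 in progenitors (2.28 CPM), a ratio of 15.9 (10.2 to 26.2), with 5.37 CPM in early epithelium and 1.43 in stroma. The region at chr7:30457400-30458281, between the starts of Kirrel2 and Nphs1, was at 23.5 against 6.93 CPM, a ratio of 3.39, and a region farther upstream, at chr7:30456095-30457292, was at 16.1 against 4.99 CPM. In Synpo, an intronic region had a ratio of 7.17 (32.7 against 4.56 CPM) and a start site region a ratio of 6.84. Further intronic regions were those of Podxl at chr6:31548943-31550185, at 15.9 against 2.63 CPM but 18.2 CPM in ureteric epithelium, of Ptpro at chr6:137421974-137423203, at 15.9 against 3.27 CPM, and of Lmx1b at chr2:33575212-33576254, at 23.7 against 5.12 CPM.

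The most open start site regions of the other genes were under 4-fold. The Podxl promoter region was just under the 4-fold line, with 61.0 CPM in podocyte-like nuclei and a ratio of 3.93, and the Ptpro region at chr6:137252035-137252951, which holds the promoter sequence above, was at 29.7 against 8.87 CPM. The first start site of Magi2 (chr5:19226225-19227282) was at 49.4 against 20.3 CPM, while those of Foxc1 (41.5 against 38.4 CPM), Foxc2 (27.5 against 17.3 CPM) and Lmx1b (9.97 against 11.2 CPM) differed less. Another start site region of Lmx1b, at chr2:33631333-33632202, was lower in podocyte-like nuclei, at 8.54 against 19.3 CPM. In Lmx1b, where the gene total was equal, single introns moved in opposite directions. The intron at chr2:33605029-33606291, whose sequence is given above, was at 72.1 CPM in podocyte-like nuclei and 31.8 in progenitors, and the one at chr2:33628613-33629525 was at 7.59 and 50.8 CPM. The intronic region of Ptpro at chr6:137294823-137295836 was open in both, at 34.9 CPM in podocyte-like nuclei and a ratio of 1.34.

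Of the 120 peaks of Enl-WT, 75 overlapped a peak called in Enl-T1 (62.5%, against 70.0% of all Enl-WT peaks), and 75 of the 93 peaks of Enl-T1 overlapped one of Enl-WT (80.6% against 86.6%). Peaks were called per library on all nuclei together, so fewer nuclei of a type and less accessibility per nucleus cannot be told apart in these calls. Of the 9 regions 4 times higher in podocyte-like nuclei, 5 had no overlapping peak in Enl-T1: the Nphs1 region with the ratio of 15.9, both Synpo regions with the next highest ratios, and both Ptpro introns. Of all 1836 Enl-WT peaks past 4-fold, 1092 had one (59.5%), as did 97.1% of those under 4-fold. The former were also of lower level in the library as a whole, with a median over all Enl-WT nuclei of 4.02 CPM against 19.7 for the latter. By gene, shared peaks were 5 of 8 for Nphs1, 4 of 7 for Podxl, 12 of 17 for Synpo, 17 of 24 for Ptpro, 22 of 45 for Magi2, 12 of 15 for Lmx1b, 2 of 3 for Foxc1 and 1 of 1 for Foxc2.

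**Figure D3:**
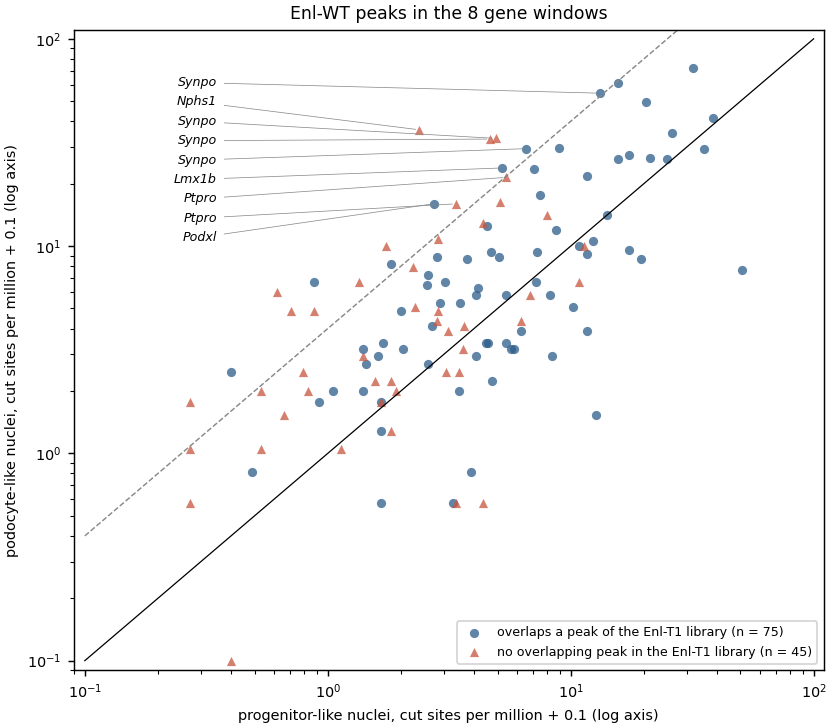
The 120 Enl-WT peaks in the windows of the 8 genes, by accessibility in progenitor-like (x axis) and podocyte-like nuclei (y axis), both in CPM plus 0.1 on log axes. The solid line marks equal levels and the dashed line a ratio of 4. Red triangles are the 45 peaks with no overlapping peak in Enl-T1, and the named points are the 9 peaks past 4-fold with at least 50 podocyte counts, led by an Nphs1 region at 36.3 against 2.28 CPM.

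With no podocyte-like nuclei in Enl-T1, the genotypes were compared within classes that both held, over the 75 regions of the 8 genes that both libraries called. Progenitor-like nuclei fell into different clusters by library: cluster 5 held 1488 Enl-WT nuclei and 86 of Enl-T1, and cluster 0 held 17 and 4140. For this reason, and given the leading genes of cluster 5, these are compared by cluster number. Between cluster 0 of Enl-T1 and cluster 5 of Enl-WT, Nphs1 alone of the 8 genes was called, at a log2 ratio of 0.5 or more in size. It had 806 counts in Enl-WT (39.2 CPM) and 976 in Enl-T1 (24.9 CPM), a log2 ratio of -0.66 (-0.85 to -0.46). Of the 16239 genes compared, 3.93% were lower by this measure and 2.83% higher, and 1 of 8 lower is 1 call on a short list. Over all progenitor-like nuclei of each library, whatever their cluster, Nphs1 was again the single call (3.8% of all genes lower, 2.73% higher). The call was lost at a minimum of 5000 counts per barcode, where the ratio was -0.39 and the clusters held other numbers of nuclei.

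The remaining genes differed little in these clusters. Lmx1b was at 233 CPM in Enl-WT against 187 in Enl-T1 (-0.31, -0.39 to -0.24), Ptpro at 105 and 90.6 (-0.22, -0.33 to -0.11), and Synpo at 104 and 91.3 CPM (-0.19, -0.29 to -0.07). Foxc2 was at 19.2 and 24.3 CPM (0.34, 0.10 to 0.58). Foxc1, Podxl and Magi2 had intervals that spanned 0, with ratios of -0.03, 0.01 and 0.02. The median of the 8 was -0.11, against 0.01 over all genes.

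A gene total averages over its regions, so single regions can move further than the total by construction. Of 52 regions of the 8 genes with at least 200 counts in these clusters, 4 were lower by 1 or more on the log2 scale and 1 higher. Over all shared regions the shares were 5.39% lower and 6.07% higher, so the regions of these genes did not stand out by number. The lower regions were 2 introns of Ptpro, an intron of Lmx1b and the start region of Nphs1. In Ptpro, the region at chr6:137303479-137304587 went from 14.2 CPM in Enl-WT to 3.80 in Enl-T1 (-1.90, -2.34 to -1.50), and that at chr6:137294823-137295861 from 29.4 to 12.9 CPM (-1.19, -1.44 to -0.95). The former was a progenitor region in Enl-WT, at 14.2 CPM against 1.62 in podocyte-like nuclei, and the latter was open in both classes. The region between Kirrel2 and Nphs1 went from 7.73 to 3.32 CPM (-1.22, -1.73 to -0.74) and was at 2.55 and 2.52 CPM in stroma. The Lmx1b intron at chr2:33626128-33627290 went from 13.8 to 5.56 CPM (-1.31, -1.69 to -0.94), and from 12.4 to 7.68 CPM in stroma. The region that was higher lay in an intron of Ptpro at chr6:137386738-137387964, at 3.31 CPM in Enl-WT against 8.29 in Enl-T1 (1.33, 0.78 to 1.90), and it holds a GT repeat of 86 bases. A further start region of Nphs1, at chr7:30477539-30478552, held 44.3% of the counts of the gene in cluster 5. Without it the Nphs1 ratio was -0.67 (-0.92 to -0.40), and without the region shared with Kirrel2 it was -0.54 (-0.76 to -0.33).

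Among the 25 other podocyte genes, 2 were called lower and 2 higher in cluster 0 of Enl-T1, where 3.93% of all genes were lower and 2.83% higher. Kirrel2, which shares the upstream region with Nphs1, went from 12.5 to 7.65 CPM (-0.70, -1.05 to -0.35) and Col4a4 from 40.1 to 28.1 (-0.52), while its head-to-head neighbour Col4a3 went from 26.4 to 42.4 CPM (0.69, 0.49 to 0.89) and the integrin gene Itga3 from 49.7 to 73.5 (0.57). Both collagen genes encode chains of the same basement membrane network. Wt1 was at 115 and 105 CPM (-0.12, -0.22 to -0.02).

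In stroma-like nuclei, of which the Enl-WT library held 2962 and the Enl-T1 library 4926, none of the 8 genes passed the same measure in either direction (backgrounds 1.26% lower and 1.69% higher). One stroma cluster held 3 Enl-WT nuclei and 1101 of Enl-T1, so the makeup of this class differed between the libraries. Nphs1 was at 18.4 CPM in both, and Foxc1 at 61.1 and 58.2 CPM. Ptpro was at 64.4 CPM in Enl-WT against 80.4 in Enl-T1 (0.32, 0.21 to 0.43), the opposite direction to its gene total in the progenitor clusters. Lmx1b was at 60.5 and 51.7 CPM (-0.23, -0.35 to -0.10), the same direction as in the progenitor clusters. In ureteric epithelium (892 and 1721 nuclei; backgrounds 0.983% lower and 1.41% higher) and in endothelium (714 and 517; 1.96% and 1.78%) none was called either, although Nphs1 did not reach 200 counts in endothelium, with Podxl at 119 and 127 CPM in endothelium (0.09, -0.13 to 0.31). Tubule and early epithelial classes held 61 to 92 nuclei of Enl-T1, and there more of all genes passed the measure. Of the 8 genes, 2 were lower in early epithelium (background 10.9% lower, 9.03% higher), 4 higher and 1 lower in proximal tubule (10.7% higher, 17.5% lower), and in distal tubule or loop, where 7 reached 200 counts, 1 was lower (14.3% lower, 9.45% higher). In immune nuclei 2 of the 8 genes reached 200 counts and neither was called (7.23% lower, 3.12% higher).

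**Figure D4:**
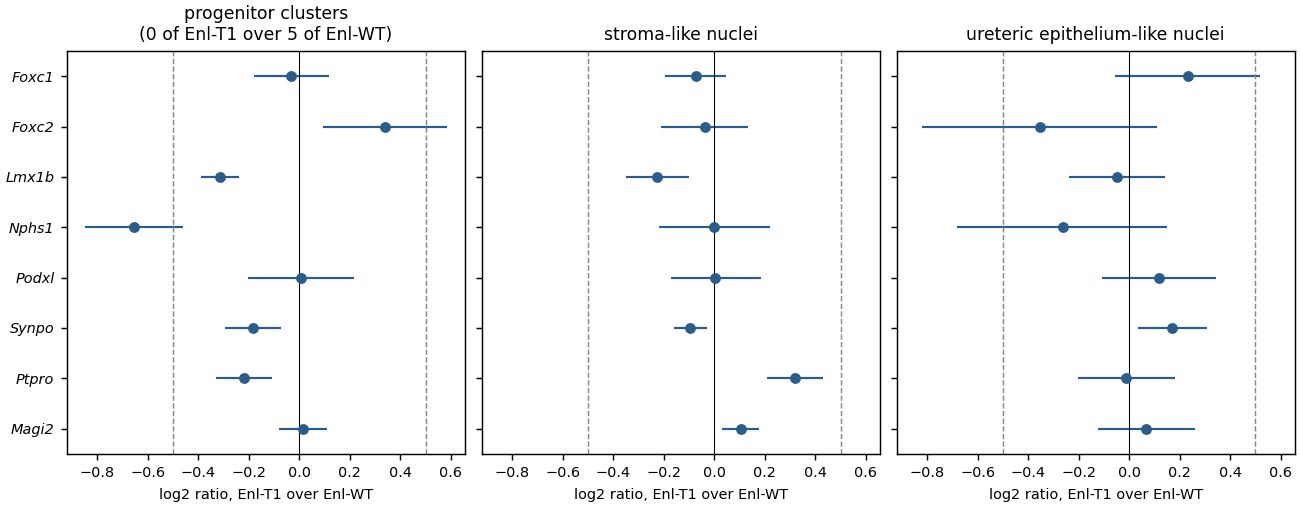
Log2 ratio of Enl-T1 over Enl-WT (x axis) of the 8 genes (y axis) in shared regions, for progenitor cluster 0 of Enl-T1 against cluster 5 of Enl-WT, for stroma-like and for ureteric epithelium-like nuclei. Points are ratios of sums over nuclei of 1 library each, bars 95% counting intervals, and dashed lines mark 0.5 and -0.5. Nphs1 at -0.66 in the progenitor clusters is the only point past a line.

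Over all nuclei of each library, which mix the makeup of the kidney with levels per nucleus, Nphs1 was at 25.9 CPM in Enl-WT against 20.3 in Enl-T1 (-0.36, -0.47 to -0.24), Podxl at 39.1 and 34.9 (-0.16), and none of the 8 passed a ratio of 0.5 (backgrounds 1.41% lower and 1.55% higher). Fewer podocytes and less accessibility per nucleus cannot be told apart in these sums.

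The libraries were also searched for single nuclei with several of the genes open, without use of clusters. Each nucleus was thinned to 2000 cut sites, which left out none, and a gene counted as open with at least 1 cut site in a shared region. Shared regions left out 45 of the 120 Enl-WT peaks, among them 5 of the 9 that were 4 times higher in podocyte-like nuclei. At least 4 of the 8 genes were open in 63 Enl-WT nuclei (0.665%, 0.511 to 0.850%) and 72 of Enl-T1 (0.570%, 0.446 to 0.717%), and the intervals overlapped. In Enl-WT the share was 4.12% of podocyte-like nuclei (14 of 340, 2.27 to 6.81%), 0.997% of progenitors and 0.112% of ureteric epithelium (1 of 892). Ureteric epithelium is not a class with all 8 genes closed: over all Enl-WT peaks Podxl was at 45.7 and Synpo at 125 CPM there. Its median depth before thinning was 15741 counts against 12452.5 in podocyte-like nuclei. Of the 63 nuclei of Enl-WT, 14 were podocyte-like, 15 progenitor-like and 11 stroma-like. Of the 72 of Enl-T1, 30 were progenitor-like, 30 stroma-like and 7 ureteric. The mean number of genes open per thinned nucleus was 1.43 in podocyte-like nuclei, 1.07 in progenitors and 0.666 in ureteric epithelium of Enl-WT, and 0.982 in progenitors of Enl-T1. Without thinning, 27.3% of nuclei in Enl-WT against 11.3% in Enl-T1 had at least 4 genes open, in libraries of different depth. With thinning and all peaks of each library, the shares were 1.28% (1.06 to 1.52%) and 0.823% (0.673 to 0.996%). Those intervals lay apart, but the peak sets then differed between the libraries. The podocyte-like share in Enl-WT was then 7.65%. At 2000 cut sites most podocyte-like nuclei had fewer than 4 of the genes open, so a count of open genes could not mark single podocytes at this depth.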

How the data were processed

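Nuclei from 2 libraries, 1 of Enl-WT and 1 of Enl-T1 kidneys, were profiled by snATAC-seq. The authors aligned the reads to mm10 with Cell Ranger ATAC 2.1.0, ran peak calling per library and deposited raw counts of cut sites per peak and barcode; the deposited counts were not normalised. The study also filtered nuclei on fragment number, share of fragments in peaks, blacklist ratio and start site enrichment, none of which was applied here because fragment files were not used here. The 8 genes, the other gene lists and the naming rule were chosen with earlier results of these data known.

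Of 9628 and 13376 barcodes in the files, those with 2000 to 100000 counts were kept (9472 and 12635). Peaks that overlapped by 1 bp or more in both libraries made 110706 shared regions. Those open in at least 0.5% of nuclei, without the 75 of the 8 genes, were clustered (110564 regions) by latent semantic indexing (components 2 to 30, scikit-learn 1.9.0), 15 nearest neighbours and the Leiden algorithm (leidenalg 0.10.2, resolution 1). Clusters were named by the mean log2 ratio of marker genes to the median cluster (at least 0.4, 3 markers raised by 0.5 at 5 CPM, lead of 0.1). The lead was taken over other lineages only, so none was needed between podocyte and early epithelium. Clusters with over 3 times the median cluster's share of counts in the most counted regions stayed unnamed. The graph that joins nearest neighbours replaced one of all shared neighbours after the latter had merged podocytes with early epithelium. Doublets were not removed in the values reported; an alternative removed 718 (Enl-WT) and 1277 (Enl-T1), 24 podocyte-like nuclei among them.

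Gene levels are sums of counts over the peaks of a library, or over shared regions between libraries, in GENCODE M21 gene bodies with 2 kb upstream, scaled to CPM. Genes needed 200 counts in both groups together. A start site region lies within 1 kb of an annotated start. Intervals take counts divided by 2 as fragments. There were no replicates, so no p-values were made. All 8 genes were named; from the list of 25, the 3 highest and 3 lowest by ratio plus Kirrel2 and Wt1; the 10 most similar genes; and for each of the 8 the most open region at a start site and away from one. Genes and regions called between the genotypes were named in addition, after their values had been seen. The ratio and its interval were run on simulated data, drawn as Poisson fragments of 2 cut sites each. The interval rests on the same model, so this run could not test that model. bedtools 2.31.1, igraph 0.11.9, scipy 1.17.1 and matplotlib 3.10.9 were used. Some of the naming markers are not reported here.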

Additional observations from a re-analysis of the deposited data

Results flagged for a closer look

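The summed level of Ptpro moved in opposite directions in Enl-T1 in 2 classes. Its log2 ratio of Enl-T1 over Enl-WT was -0.22 (-0.33 to -0.11) between the progenitor clusters and 0.32 (0.21 to 0.43) in stroma-like nuclei, and both counting intervals lay apart from 0. Neither ratio passed 0.5 in size, each rests on 1 library per genotype, and the difference was not tested. The 2 Ptpro introns that fell in the progenitor clusters (29.4 to 12.9 and 14.2 to 3.80 CPM) were low in stroma. There they went from 2.60 to 2.52 and from 4.19 to 2.81 CPM. An intron at chr6:137343380-137344402 rose in both, from 1.07 to 2.47 CPM in the progenitor clusters and from 12.7 to 20.6 in stroma. The totals thus weigh different regions in each class, and totals without the 2 introns were not compared.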

How the results depend on the processing

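No paired analysis was possible because each genotype is 1 library and no number links samples across genotypes. For the same reason no library could be left out. The podocyte-like share of Enl-WT kept within 3.54 to 3.62% under resolution 2, components 2 to 20, removal of doublets, a clustering with the regions of the 8 genes, a naming lead of 0.2 and without barcodes found in both libraries. It was 7.21% at a minimum of 5000 counts per barcode and 0% with the graph of all shared neighbours, which was tried first and replaced after seeing the data. The share in Enl-T1 was 0% throughout, except 0.0181% at 5000 counts. With the graph of all shared neighbours that 0% was fixed, because no cluster was called podocyte-like in either library. The number of genes higher in podocyte-like nuclei was 2 to 4, being 4 at start site regions alone, where Ptpro passed (1.67), and 2 at 5000 counts, where Synpo did not (0.87). Against all other nuclei of Enl-WT, added after seeing the data, it was again 3, with Ptpro (1.25) in place of Synpo (0.77). Lmx1b, not called, ranged from -0.72 to 0.86. In the progenitor clusters 1 gene was lower in Enl-T1, except 0 at 5000 counts, and Nphs1 ranged from -0.80 to -0.39. Where the largest Enl-T1 cluster lost its name, this comparison used the largest Enl-T1 progenitor cluster that remained, which at 5000 counts held 961 nuclei. Of the single-gene ratios recomputed, 251 kept their side of the threshold, 2 (Ptpro) newly passed it, 3 (Synpo in 2, Nphs1 in 1) no longer did, and none that was called changed direction. The share of nuclei with several genes open depended on the setting: without thinning it was 27.3% in Enl-WT and 11.3% in Enl-T1, with 3 genes 4.98% and 4.48%, with 5 genes 0.0528% and 0.0237%, and over all peaks of each library, added later, 1.28% and 0.823%. The cause of these moves was not tested, except that fewer genes or more cut sites admit more nuclei by construction. The Enl-T1 library has fewer counts per nucleus, and classes with under 100 nuclei there give wide intervals.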
